A study of Arabidopsis thaliana with 4 samples.

Results

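Regions of the Arabidopsis thaliana genome that were listed as bound by phytochrome A (phyA) in exactly 2 of 3 replicate experiments are described here. They number 2667 of 10015 regions in all. The members were chosen by the presence of peaks, which is a measured value: peaks of the 3 replicate lists were merged where they shared at least 1 bp, and regions on the 5 nuclear chromosomes with peaks from exactly 2 lists were kept. Peaks of all 3 lists met in 3323 regions, and 4025 regions had a peak from 1 list. The number of lists that support a region, its length, its reads and its summits all come from the same peaks as the choice, so these values are given as a description and carry no test.

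Phytochrome A is the photoreceptor through which etiolated seedlings respond to far-red light. The small proteins FHY1 and FHL carry it into the nucleus, where it acts on the COP1/SPA ubiquitin ligase, on transcription factors such as HY5 and the PIFs, and at chromatin. Chromatin immunoprecipitation sequencing (ChIP-seq) reads where a protein, or the complex that holds it, is cross-linked to DNA. Here a GFP antibody was used, so what was read is the phyA-GFP fusion protein.

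The 3 ChIP samples form a single group. All were dark-grown seedlings, 4 days old, that received 3 h of far-red light and carried a phyA-GFP transgene driven by the PHYA promoter in the phyA201 mutant. Per the labels' protocols 5 g of seedlings were fixed with 1% formaldehyde for a sample, and the replicates are described as biologically distinct. The series also names 1 input sample, which was not analysed here, and no group without far-red light or without the transgene is compared. Replicate 1 had 7084 peaks, replicate 2 had 7534 and replicate 3 had 6037, and the reads inside them summed to 11110782, 7702516 and 4951883 in that order.

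Replicates 1 and 2 accounted for most of the regions, with 1552 that replicate 3 lacked. Replicates 1 and 3 shared 545 regions without replicate 2, and replicates 2 and 3 shared 570 without replicate 1. As a share of each list, regions of exactly 2 replicates held 30.0% of the peaks of replicate 1, 28.9% of those of replicate 2 and 18.9% of those of replicate 3. Replicate 3, the list with the fewest peaks and reads, was thus least often 1 of the 2. Total reads per library were not used here, and the part of depth in these counts was not tested.

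The order of the pairs turned with the stringency of the lists. Column 9 of the lists holds percentages that were taken as false discovery rates (FDR). An FDR of at most 1% was given to 1173 peaks (16.6%) of replicate 1, against 3621 (48.1%) of replicate 2 and 2906 (48.1%) of replicate 3. With only those peaks, replicates 2 and 3 shared 1081 regions that replicate 1 lacked, replicates 1 and 2 shared 216, and replicates 1 and 3 shared 58. Replicates 2 and 3 were then the pair with the most regions of exactly 2 replicates, against 570 of 2667 in the full lists.

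Few regions owed their place to a marginal overlap. The smallest overlap between the peaks of the 2 replicates was 9 bp, and it was under 100 bp in 5 of the 2667 regions. The region with 9 bp lay at IRX9 (AT2G37090), a gene of xylan synthesis, on chromosome 2 from 15586858 to 15588646 (TAIR10), with 937 and 504 reads in replicates 1 and 2. The next smallest overlap was 42 bp, at AT5G02580. On the other side of the limit, a peak of the missing replicate lay 1 bp beyond a region at AT1G69030 and 2 bp beyond a region at AT3G26430. Of all members, 51 (1.91%) had a peak of the missing replicate within 100 bp, and 493 (18.5%) had one within 1000 bp. The median distance from a region to the nearest peak of the missing replicate was 4454 bp for replicate 3, 2927 bp for replicate 2 and 3660 bp for replicate 1.

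The regions were intermediate in length. Their median was 1488 bp, against 2135 bp for regions of all 3 replicates and 1034 bp for regions of 1. Between the pairs, the median was 1607 bp for replicates 1 and 2, 1550 bp for replicates 1 and 3 and 1185 bp for replicates 2 and 3. The pairs with replicate 1 were the longer ones, and replicate 1 also had the longest peaks in these regions. Its median peak measured 1380 bp, that of replicate 2 1097.5 bp and that of replicate 3 1019 bp. Regions of 3500 bp or more made up 4.27% of the members (114), against 18.2% of the regions of all 3 replicates. A list placed more than 1 peak in 90 of the members (3.37%), against 20.6% of the regions of all 3 replicates.

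Reads and fold enrichment were intermediate as well. A region is represented in each replicate by its peak with the most reads. In replicate 1 the median peak held 1187 reads in regions of exactly 2 replicates, against 1583 in regions of all 3 and 1005.5 in regions of 1. The corresponding medians were 776, 1068 and 653.5 reads in replicate 2, and 613, 817 and 519 reads in replicate 3. The same order was thus present in each of the 3 lists, while the interquartile ranges overlapped between the kinds of region in every list. Longer peaks hold more reads, and per kb of peak the gap was smaller. In replicate 1 the median was 845 reads per kb in regions of exactly 2 replicates, against 912 in regions of all 3 and 805 in regions of 1. Median fold enrichment, the authors' ratio of signal to background at a peak, was 4.20, 3.72 and 3.46 in replicates 1, 2 and 3. It was 4.78, 4.18 and 3.76 in regions of all 3 replicates and 3.89, 3.50 and 3.36 in regions of 1. Within its own list the median peak of a member therefore stood at the 42.6th, 43.0th and 41.6th percentile of fold enrichment, a little below the middle.

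**Figure D1:**
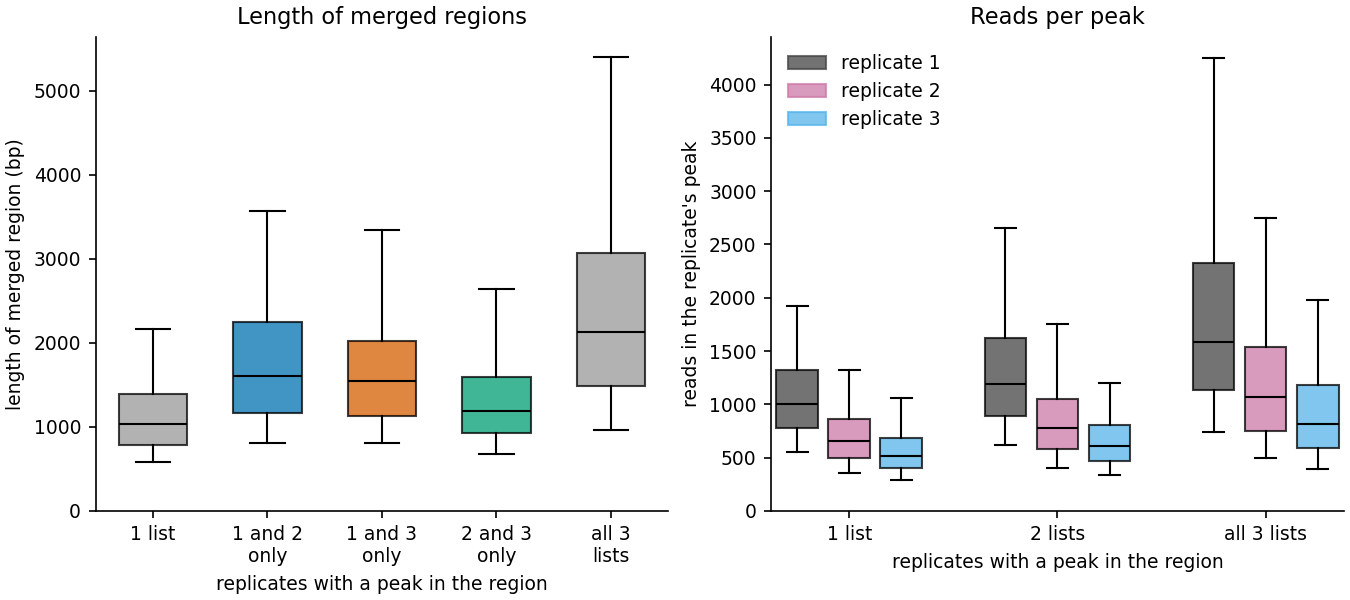
Left, length of merged regions in bp by the replicates that have a peak there; right, reads in the peak of each replicate by the number of lists that share the region. Boxes give the interquartile range with the median and whiskers the 5th and 95th percentiles; regions of exactly 2 replicates lie between those of 1 list and of all 3 lists in both, with a median length of 1488 bp against 1034 and 2135 bp.

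Between the pairs, reads differed more than fold enrichment did in replicate 2, but not in every list. In regions of replicates 1 and 2 the median peak held 1208 and 814 reads. In regions of replicates 1 and 3 it held 1129 and 629 reads, and in regions of replicates 2 and 3 it held 689 and 598.5 reads. In replicate 2 the median peak thus stood at the 46.9th percentile of its list by reads in regions shared with replicate 1, and at the 34.0th in regions shared with replicate 3. Its median fold enrichment was 3.72 and 3.73 in the same regions, at the 43.0th and 43.4th percentiles. In replicate 3 the percentiles were 43.0 and 38.7 by reads, and 39.4 and 43.9 by fold enrichment, in regions shared with replicates 1 and 2. In replicate 1 they were 44.2 and 38.4 by reads, and 43.5 and 39.8 by fold enrichment, in regions shared with replicates 2 and 3. Across regions, fold enrichment of the 2 replicates was only loosely ordered alike. Spearman's rho was 0.25 over the 1552 regions of replicates 1 and 2, 0.23 over the 545 of replicates 1 and 3 and 0.15 over the 570 of replicates 2 and 3. The same coefficients over the 3323 regions of all replicates were 0.37, 0.29 and 0.28. Regions of a pair share their libraries and lie within a narrow range of fold enrichment, so these coefficients are descriptions.

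Where 2 replicates listed a region, their summits lay within 100 bp of each other in most cases. A summit is the position of highest signal, given by the start of a peak plus the deposited offset. The median distance between the summits was 76 bp for replicates 1 and 2, 71 bp for replicates 1 and 3 and 55 bp for replicates 2 and 3. The same pairs lay a median of 79, 88 and 84 bp apart in regions of all 3 replicates, when represented there by the peaks with the most reads. Summits within 100 bp of each other were found in 59.8% of the regions of replicates 1 and 2 (95% Wilson interval 57.3 to 62.2%). The share was 59.6% (55.5 to 63.7%) for replicates 1 and 3 and 68.4% (64.5 to 72.1%) for replicates 2 and 3. Distances over 1000 bp occurred in 81, 29 and 11 regions of the 3 pairs, which is 5.22, 5.32 and 1.93% against 10.4 to 11.8% in regions of all 3 replicates.

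Region length goes with these distances. Among regions under 1500 bp the medians were 57, 54.5 and 45 bp in members, and 52, 59 and 56 bp for the same pairs in regions of all 3 replicates. Among regions of 1500 bp or more they were 96, 104 and 93 bp in members and 95, 108 and 104 bp in regions of all 3. At matched length the members and the regions of all 3 replicates thus lay within 11 bp of each other in every pair.

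**Figure D2:**
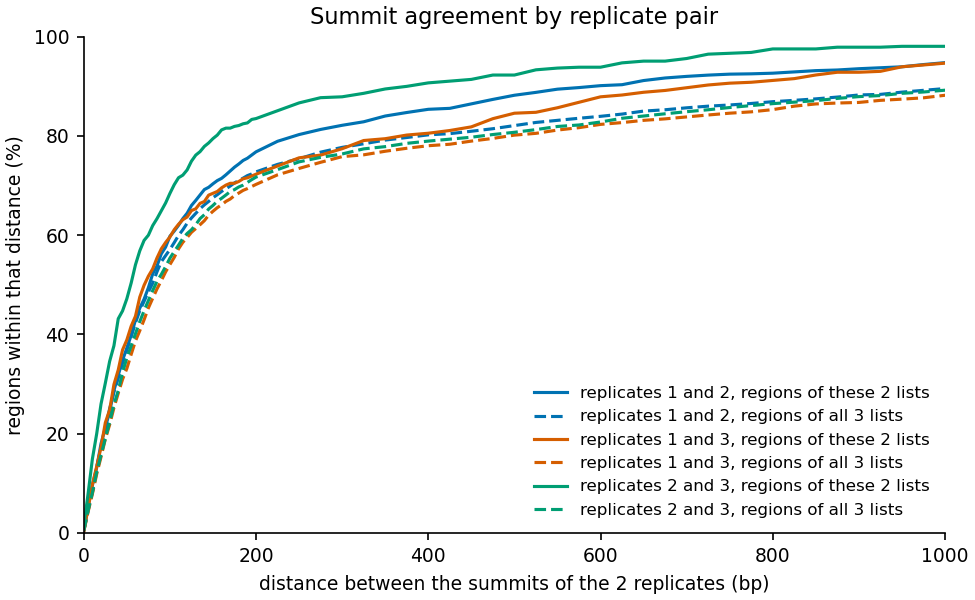
Share of regions (%) whose 2 summits lie within a given distance (bp), by replicate pair; solid lines are regions of exactly those 2 replicates and dashed lines regions of all 3. The solid line of replicates 2 and 3 runs highest, with 68.4% within 100 bp, and the dashed lines of all pairs lie lowest beyond 500 bp.

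Midpoints of regions of exactly 2 replicates were in gene flanks more often than the share of the sequence that flanks make up. Of the midpoints, 1118 (41.9%, 95% Wilson interval 40.1 to 43.8%) were in a flank, meaning within 1000 bp of a protein-coding gene on either side of it, a class that covers 20.4% of the nuclear sequence between the first base and the last gene or peak. Protein-coding gene bodies held 44.1% of the midpoints and cover 54.1% of the sequence. Other genes, such as pseudogenes and genes of noncoding RNA, were counted only where they lay outside those bodies and flanks. There they held 22 midpoints (0.82%) and cover 8.63%. The remaining 13.1% lay elsewhere, in sequence that makes up 16.8%. Because the gene table gives no strand, a flank can be a promoter or the sequence after a gene. Intervals cover counting error only and treat neighbouring regions as independent.

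By the location class of their midpoints, regions of 2 replicates stood close to regions of all 3. By distance from the midpoint to the nearest gene end they stood nearer to regions of 1. Their midpoints lay a median of 268 bp from a gene end, against 376 bp in regions of all 3 replicates and 233 bp in regions of 1. Within 500 bp of an end were 67.9% of the members (66.1 to 69.6%), 59.8% of the regions of all 3 replicates (58.1 to 61.5%) and 70.7% of the regions of 1 (69.2 to 72.04%). The flank share was 40.9% (39.3 to 42.6%) in regions of all 3 replicates and 36.1% (34.6 to 37.6%) in regions of 1. Regions of 1 differed by list, with flank shares of 42.3, 35.4 and 29.5% for replicates 1, 2 and 3. Their shares within 500 bp of an end were 72.7, 74.8 and 62.5% in the same order. Among the pairs the flank share was 42.3% for replicates 1 and 2, 42.9% for replicates 1 and 3 and 39.8% for replicates 2 and 3, with overlapping intervals. The share elsewhere was 16.7% (13.8 to 20.1%) for replicates 1 and 3, 12.2% (10.7 to 13.97%) for replicates 1 and 2 and 12.1% (9.68 to 15.0%) for replicates 2 and 3. The share inside genes was 39.4% (35.4 to 43.6%), 44.7% (42.2 to 47.1%) and 47.2% (43.1 to 51.3%) in the same order. In both classes the intervals of replicates 1 and 3 overlapped those of the other pairs. Summits were more often in flanks than midpoints were, in 50.8, 49.4 and 47.2% of the members for replicates 1, 2 and 3. Regions of all 3 replicates had 52.8, 52.3 and 53.3% of their summits in flanks, and regions of 1 had 47.4, 43.9 and 35.5%. By this share the members stood between the other kinds in each list. Summits lay within 500 bp of a gene end in 70.9, 73.0 and 69.6% of the members for replicates 1, 2 and 3. The shares were 68.3, 67.9 and 67.3% in regions of all 3 replicates and 73.8, 76.5 and 61.9% in regions of 1. By summits within 500 bp of an end the members thus stood between the other kinds in replicates 1 and 2, and above both in replicate 3.

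**Figure D3:**
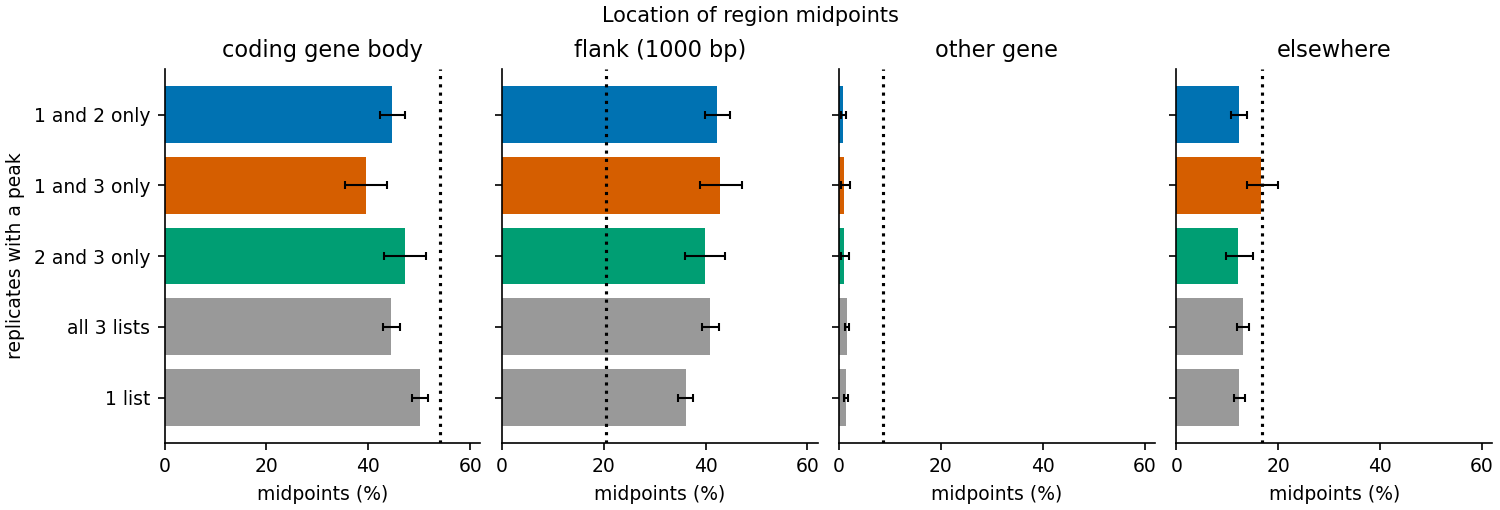
Share of region midpoints (%) in protein-coding gene bodies, in their 1000 bp flanks, in other genes outside both and elsewhere, by the replicates that have a peak; error bars are 95% Wilson intervals and dotted lines the share of the nuclear sequence in each class. In every row the flank bar lies above its dotted line of 20.4% and the gene body bar below its line of 54.1%.

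Most of the regions touched more than 1 gene. At least 1 flank was overlapped by 2401 regions (90.0%), of which 881 met a flank of 1 gene, 1167 of 2 genes and 353 of more. Together they reached a flank of 4089 of the 27444 protein-coding genes, and 638 of these genes also had a region of all 3 replicates in a flank. Regions of exactly 2 replicates thus added 3451 genes, 12.6% of all protein-coding genes, to the 5524 (20.1%) that had a region of all 3 replicates. Replicates 1 and 2 added 2121 of these genes, replicates 1 and 3 added 696 and replicates 2 and 3 added 752, with some genes added by more than 1 pair.

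Light-signalling genes were counted over a list of 81 genes found in the gene table under both their identifier and their name. Regions of exactly 2 replicates added 10 of the 81 (12.3%, 95% Wilson interval 6.85 to 21.3%), which is near the 12.6% of all protein-coding genes. Regions of all 3 replicates were beside 45 of the 81 (55.6%), against 20.1% of all genes. Both kinds together reached 55 of the 81 (67.9%), against 32.7% of all genes. Among genes that had no region of all 3 replicates, 10 of 36 listed genes were added (27.8%, interval 15.8 to 44.0%), against 15.7% of all such genes. The added share over the whole list was thus no result about these genes. Over the genes without a region of all 3 replicates, the added share lay above the background by little more than its counting error. A further 12 listed genes (14.8%) had only regions of 1 replicate in a flank, against 14.7% of all genes. The remaining 14 (17.3%) had none, against 52.6% of all genes.

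The 10 genes were PHYA, CRY3, PHOT2, FHY3, PIF7, CIB1, COP1, SPA3, BBX22 and PKS2. Replicates 1 and 2 added PHYA, PIF7, CIB1, COP1 and PKS2, and replicates 1 and 3 added CRY3, PHOT2, FHY3, SPA3 and BBX22. Each of these pairs thus added 5 of the 81 (6.17%, Wilson interval 2.67 to 13.6%). Of all protein-coding genes, replicates 1 and 2 added 7.73% and replicates 1 and 3 added 2.54%. The 7.73% lies inside that interval and the 2.54% just below it, and neither contrast was tested. Replicates 2 and 3 added 0 of the 81. By the limit of 3 counts that a count of 0 allows, the share could be up to 3.70%, and the upper Wilson limit is 4.53%, against 2.74% of all protein-coding genes. By role, the added genes were 3 of 14 photoreceptor genes, 1 of the 4 genes of phyA import and its regulators, 2 of 11 bHLH factor genes, 2 of 13 genes of repressor complexes, 1 of 9 B-box factor genes and 1 of 9 genes of phytochrome-associated proteins. Among the bHLH genes the other 9 had regions of all 3 replicates, so each of the 11 was reached by at least 2 replicates. None of the 5 HD-Zip II homeobox genes of the shade response and none of the 4 genes of phototropin or UV-B signalling was added, since all 9 had regions of all 3 replicates. No gene was added either among the 6 bZIP or MYB factor genes, where HYH and LAF1 had no region of 2 or 3 replicates, or among the 6 genes of phyA or cryptochrome signalling, where 4 had none. Both summits lay within 200 bp of a gene end, and within 100 bp of each other, at 5 of the 10 genes, namely FHY3, PIF7, COP1, BBX22 and PKS2. Of all members, 61.6% had summits within 100 bp of each other. The median summit distance was 111.5 bp over the 10 genes, against 70 bp over all members.

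**Figure D4:**
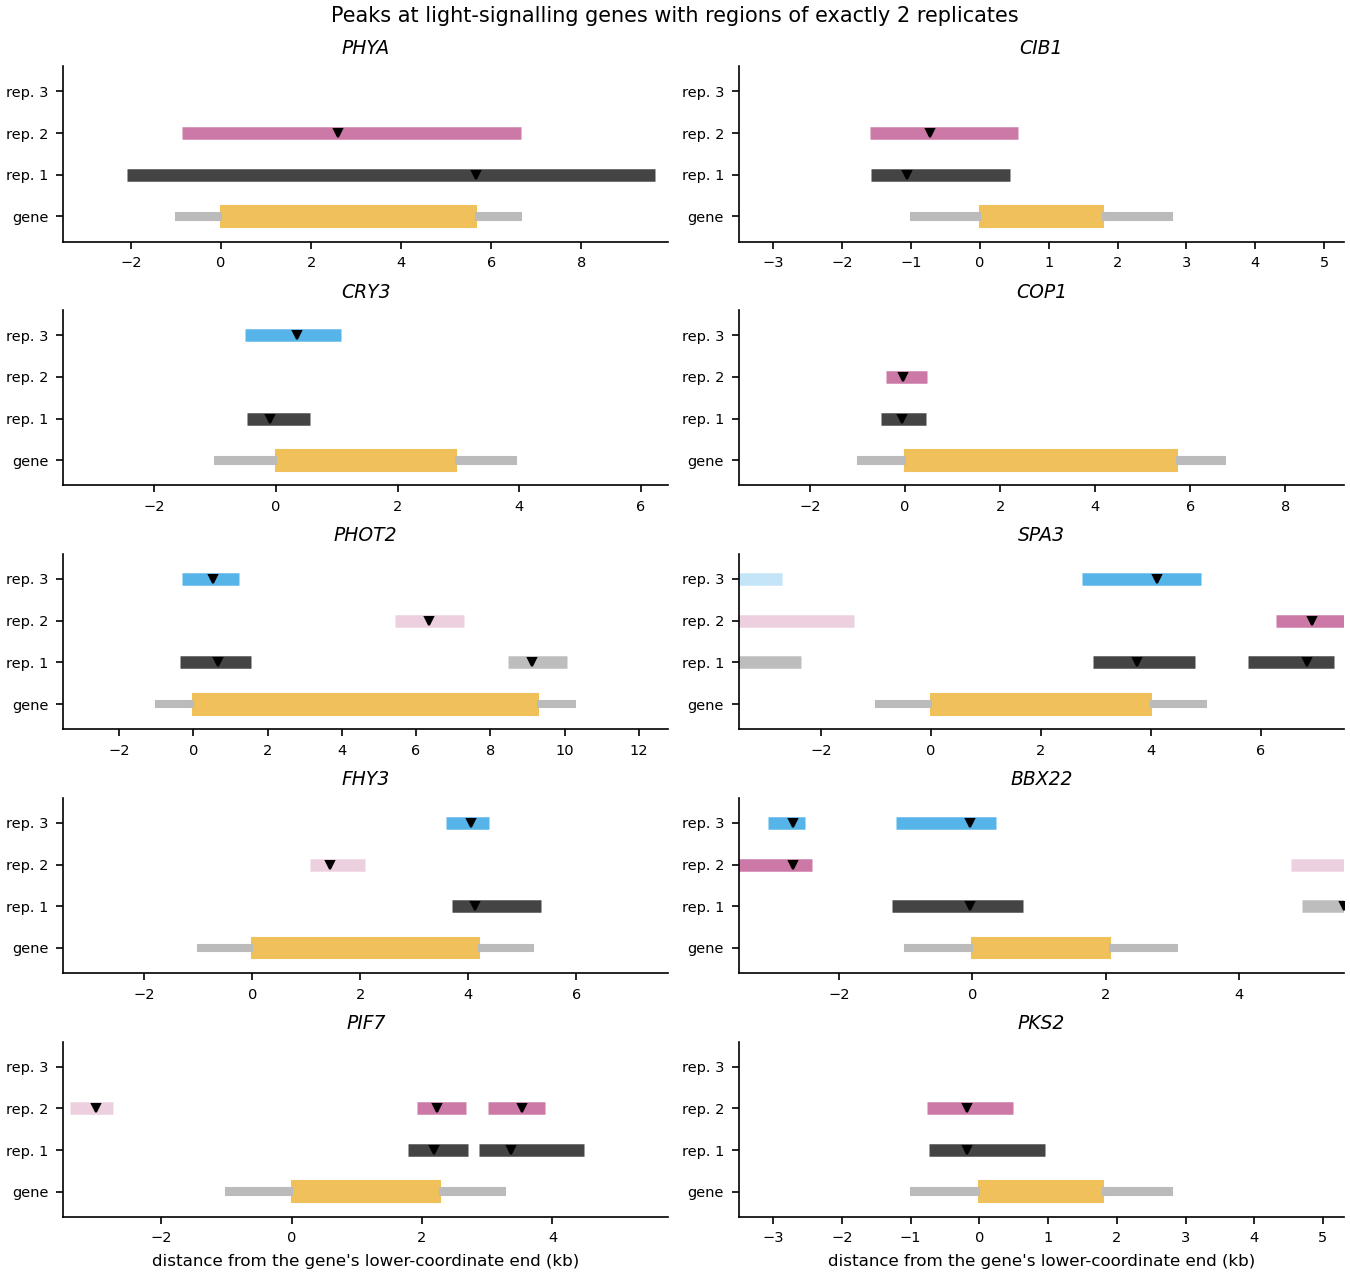
Peaks of each replicate at the 10 added light-signalling genes, by distance in kb from the gene's end with the lower coordinate. Yellow boxes are genes, grey bars their 1000 bp flanks, coloured bars peaks (full colour in regions of exactly 2 replicates, pale in other regions) and triangles summits; at COP1, BBX22 and PKS2 the summits of both replicates sit together just outside the gene, and at PHYA they lie 3081 bp apart.

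The photoreceptor gene PHYA (AT1G09570) lay in the longest of all 2667 regions, 11701 bp on chromosome 1 from 3093086 to 3104786. Replicate 1 had 19742 reads there, the most of its 7084 peaks, and replicate 2 had 15565 reads, ranked 3 of 7534. Replicate 3 had no peak within 11229 bp. Reads and enrichment did not go together at this locus. Fold enrichment was 4.77 in replicate 1, at the 64.7th percentile of its list, and 3.02 in replicate 2, at the 3.55th percentile. The summits lay 3081 bp apart, 12 bp outside the gene in replicate 1 and inside it in replicate 2. The region spans PHYA with both its flanks and reaches GLP5, AT1G09575 and AT1G09580. The plants carry a further PHYA promoter and coding sequence in the transgene, and reads from it and from the PHYA gene cannot be told apart.

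The blue-light photoreceptor genes CRY3 and PHOT2 were added by replicates 1 and 3. At CRY3 (AT5G24850), whose product is a cryptochrome of organelles, the peaks held 901 and 910 reads with fold enrichments of 3.92 and 3.01. The region ran from 8534757 to 8536322 on chromosome 5 across 1 end of the gene, with the summit of replicate 1 outside the gene by 98 bp and that of replicate 3 inside it by 353 bp. At PHOT2 (AT5G58140), which encodes a phototropin, the peaks held 1995 and 1176 reads with 3.69 and 3.77-fold enrichment. Their summits lay inside the gene, 680 and 539 bp from its nearer end, in a region from 23523463 to 23525393 on chromosome 5. By reads the PHOT2 peaks stood above the middle of both lists, at the 78.6th and 83.8th percentiles. By fold enrichment they fell on different sides of it, at the 21.4th percentile in replicate 1 and the 61.2nd in replicate 3. Replicate 2 had a peak of 1401 reads inside PHOT2 too, but 3860 bp from the region.

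FHY3 (AT3G22170) encodes a transposase-derived transcription factor that activates FHY1 and FHL, and regions of all 3 replicates were found at both of those genes. The FHY3 region ran from 7825592 to 7827343 on chromosome 3, with 1250 reads in replicate 1 and 481 in replicate 3. Fold enrichments were 3.63 and 3.26, at the 19.2nd and 26.2nd percentiles, so the FHY3 peaks were among the weaker ones of both lists. Their summits lay 77 and 159 bp inside the gene, at the end with the higher coordinate. Replicate 2 had a peak inside FHY3 as well, of 986 reads and 3.70-fold enrichment, 1507 bp from the region. The related gene FAR1 had no region in a flank.

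The bHLH transcription factor genes PIF7 and CIB1 were added by replicates 1 and 2. PIF7 (AT5G61270), whose product acts in shade responses, had a pair of regions at 1 of its ends on chromosome 5. The nearer, from 24640278 to 24641189, held 764 and 526 reads with 4.61 and 4.13-fold enrichment, and its summits lay 93 and 51 bp inside the gene. The farther, from 24641360 to 24642968, held 1318 and 654 reads with 3.35 and 3.28-fold enrichment, and its summits lay beyond the flank. The nearer PIF7 region was thus higher in fold and lower in reads than the farther one, in both replicates. It was also the only region at the 10 genes that overlapped no other protein-coding gene body, apart from the farther PIF7 region. CIB1 (AT4G34530), whose product binds cryptochrome 2, had 1899 and 1595 reads with 3.89 and 4.56-fold enrichment. Its summits lay 1063 and 722 bp from the gene, and it was the 1 gene of the 10 that was no longer counted when both summits had to lie in the gene or its flanks.

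Of the repressors of light responses, COP1 and SPA3 were added. COP1 (AT2G32950) encodes the ubiquitin ligase that marks HY5 for breakdown in darkness. Its region was short, 982 bp from 13977366 to 13978347 on chromosome 2, with 919 reads in replicate 1 and 647 in replicate 2 and fold enrichments of 3.71 and 3.87. The summits lay 30 bp apart, 74 and 44 bp outside COP1, and the region also overlapped AGO6. SPA3 (AT3G15354) encodes a partner of COP1. It had 1564 reads in replicate 1 and 1287 in replicate 3 with fold enrichments of 3.86 and 3.06, and its summits lay 366 bp apart on either side of the gene end. The SPA3 relative SPA1 had regions of both kinds, SPA4 had a region of all 3 replicates and SPA2 had none in a flank.

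BBX22 and PKS2 had the closest summits of the 10 genes. BBX22 (AT1G78600), a B-box factor gene of the HY5 pathway, had 1827 reads in replicate 1 and 813 in replicate 3 with 4.97 and 3.47-fold enrichment. The summits lay 6 bp apart, 31 and 37 bp outside the gene, in a region from 29565660 to 29567625 on chromosome 1. The nearest peak of replicate 2 lay 1193 bp away and belonged to a region of replicates 2 and 3. PKS2 (AT1G14280), whose product belongs to the phytochrome kinase substrate family, had 1766 and 1240 reads in replicates 1 and 2. Its fold enrichments of 5.23 and 5.49 stood at the 78.3rd and 93.7th percentiles, the highest pair of the 10 genes. The summits lay 5 bp apart, 186 and 181 bp outside PKS2, and replicate 3 had no peak within 11082 bp.

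Over the 10 genes, both peaks stood above the middle of their lists by fold enrichment at PKS2 and in the nearer PIF7 region, and both below it at CRY3, FHY3 and SPA3. In the farther PIF7 region both stood below it, at the 9.15th and 17.9th percentiles. At the other 5 genes the 2 replicates fell on different sides. In replicate 1, which was 1 of the 2 replicates at each gene, the FDR was 0.97% at CIB1 and 1.06 to 3.52% at the other 9. With peaks of at most 1% FDR, CIB1 was therefore the 1 gene of the 10 that was still added. That limit brought in 16 other listed genes, such as HFR1, CRY2, PIF4 and FHL, all of which have regions of all 3 replicates in the full lists.

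**Figure D5:**
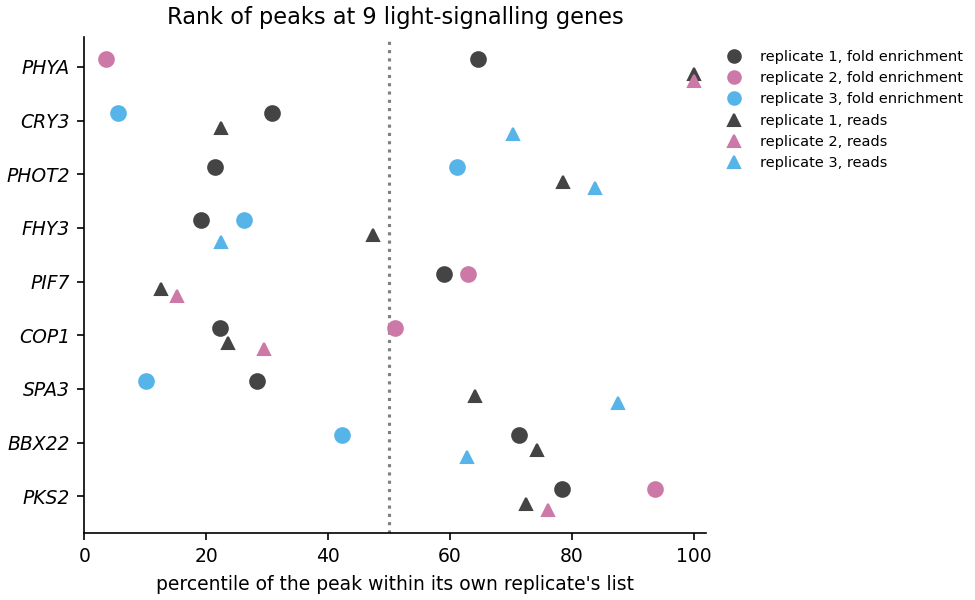
Percentile of each peak within its own replicate's list, by fold enrichment (circles) and by reads (triangles), at the 9 added genes with both summits in the gene or its flanks. PKS2 lies right of the dotted middle line in both measures, while PHYA is near 100 in reads and at 64.7 and 3.55 in fold enrichment.

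Another 6 listed genes had a region of exactly 2 replicates beside one of all 3. At PIF3, whose product represses light responses in dark-grown seedlings, replicates 2 and 3 shared a region with 689 and 988 reads and summits 2 bp apart. At BBX21 replicates 1 and 2 held 770 and 687 reads, with summits 20 bp apart. LRB2, of a ubiquitin ligase that acts on phytochrome B and PIF3, had 1062 and 662 reads in the same replicates and summits 4 bp apart. The others were SPA1, PAR2 and RPT2, with summits 39, 83 and 167 bp apart. These 6 genes were thus reached by regions of all 3 replicates already. Whether their regions of 2 replicates are separate sites was not tested. A peak of the missing replicate lay 142 bp from the region at PAR2, 448 bp at RPT2 and 516 bp at BBX21. The PAR2 region overlapped only a flank of that gene, and both its summits lay in the neighbouring gene PMD1.

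The strongest members lay at no gene of the light-signalling list, and 3 of the leading 15 were beyond any flank. Few members lay at listed genes at all, as 16 of the 81 genes had a member in a flank. Of all 2667 members, 90.0% overlapped at least 1 flank. Neither count is thus a result about the strongest members. Members were ranked by the lower of the 2 percentiles of fold enrichment. In replicates 1 and 2 the first was at RPK1 (AT1G69270), a receptor kinase gene of abscisic acid signalling, on chromosome 1 from 26042115 to 26043746. Its fold enrichments were 7.50 and 6.39 with 1635 and 638 reads, and its summits lay 5 bp apart. NHX1, which encodes a sodium/proton antiporter of the vacuole, followed with 7.46 and 5.91, and its summits lay 8 bp apart inside the gene. The sequence at BRCA2(IV) and SD3 had 6.78 and 6.55, and WRKY51, a transcription factor gene, had 6.65 and 6.13. At WRKY51 the nearest peak of replicate 3 was 469 bp away. The fifth was on chromosome 1 from 19824770 to 19825817, beyond any flank, with 6.60 and 5.84. Each of these 5 regions had summits within 52 bp of each other.

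In replicates 1 and 3 the first and the third lay beyond any flank. The first was on chromosome 1 from 13203225 to 13203858, with 6.82 and 5.54-fold enrichment, 731 and 445 reads and summits 12 bp apart. The second, at AT4G06744 on chromosome 4 from 4069812 to 4071180, had 6.66 and 4.78 and was 1084080 bp from the nearest peak of replicate 2, the largest such distance of all members. The third had 6.09 and 5.10, and AT3G02610 had 5.94 and 5.09. PAP10, a purple acid phosphatase gene, had 5.67 and 5.31 with 1377 and 831 reads.

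In replicates 2 and 3 the first was at AT4G38330 and a flank of HHP5 on chromosome 4 from 17950904 to 17951447. It had 7.14 and 6.08-fold enrichment with 576 and 383 reads, and its summits lay 14 bp apart. The next 4 were at AT1G77765, AT5G26610 with AT5G26600, AT4G02880 and AT2G38250, with fold enrichments of 5.15 to 5.50 in replicate 2 and 4.62 to 5.14 in replicate 3. At AT2G38250 a peak of replicate 1 lay 85 bp beyond the region. All 15 of these leading regions were at most 2066 bp long and had summits within 87 bp of each other.

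The longest members often had summits far apart. After PHYA, the longest of replicates 1 and 2 covered EMB2001 and neighbouring genes on chromosome 2 over 8186 bp, with summits 2958 bp apart. In replicates 1 and 3 the longest lay at CPK32, a calcium-dependent protein kinase gene, over 5714 bp. There replicate 1 had 6129 reads and 7.85-fold enrichment, while replicate 3 had 1710 reads and 3.11-fold enrichment. The next, over 5433 bp, overlapped AGP16 and SPA1, with 4357 reads in replicate 1 and 538 in replicate 3. In replicates 2 and 3 the longest were at LOG8, of cytokinin activation, over 5512 bp, and at NIA1, a nitrate reductase gene, over 5075 bp. Their summits lay 1592 and 1526 bp apart. Of these 6 longest regions, 4 had summits over 1000 bp apart, against 121 (4.54%) of all members. Length limits how far apart summits can lie, and the median member measured 1488 bp. The contrast is thus partly set by choosing the longest regions.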

How the data were processed

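The 3 ChIP samples each have their own peak list of 9 unnamed columns. The submitters' processing notes name Bowtie and the TAIR10 build. The peak caller, its settings and any use of the input are not stated in the labels. Columns were read from their values and order, which is that of a MACS table. The deposited read counts per peak are not normalized for depth. The deposited fold is a ratio on a linear scale, FDR is in percent as deposited, and the deposited score was not used. Starts are 1-based, as length equalled end minus start plus 1 in every line.

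Peaks were merged at an overlap of 1 bp and the midpoint of a region gave its location, in the order protein-coding body, flank (1000 bp), other gene, rest. Gene positions and names came from RefSeq's table of TAIR10.1, which gives no strand. Without a genome in use, no sequence is shown and the planned motif search was not run. Of 87 listed light-signalling genes, 81 matched. Percentiles are ranks within a list. Shares have 95% Wilson intervals, which cover counting error. There is a single group, so no comparison was tested. The members and lists were chosen with earlier results of these data known. Named genes are the added light-signalling genes, the 5 regions of each pair with the highest lower percentile, the 2 longest of each pair and those nearest the overlap limit. The 6 listed genes with both kinds of region were named after their values were seen. The merging was tested on simulated lists. Python 3.11.15, pandas 2.3.3 and scipy 1.17.1 were used.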

Additional observations from a re-analysis of the deposited data

How the results depend on the processing

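No paired analysis was possible because only 1 group has peak lists. With an overlap of at least 100 bp, 2692 regions had exactly 2 replicates, and 10 light-signalling genes were added. The pairs had 1569, 549 and 574 regions. The median length was 1483.5 bp and the median summit distance 70 bp, both within their spread over the 3 pairs. The flank share was 41.8%, within its Wilson interval. The stricter lists (FDR of at most 1%) moved each value. They gave 1355 regions, of which 216 were of replicates 1 and 2, 58 of replicates 1 and 3 and 1081 of replicates 2 and 3, a median length of 1845 bp, a median summit distance of 83 bp, 43.8% of midpoints in flanks and 17 added light-signalling genes, against 10 with the full lists. One gene was in both sets.

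Leaving out a replicate changes what is counted, since regions of all 3 replicates then have the remaining 2. It gave 3913 to 4917 regions, a median length of 1568 to 1866 bp, a median summit distance of 74 to 84 bp against 70 bp, and 44 to 50 light-signalling genes. The count of genes without a replicate was chosen after seeing the data. The flank share, 41.9% at the midpoint, was 51.1% at the mean of the summits, 32.9% with flanks of 500 bp and 50.3% with flanks of 2000 bp. Flanks of 2000 bp added 11 genes, with BBX18 and PAPP5 in and SPA3 out. Flanks of 500 bp added 10, and a summit of both replicates in the gene or its flanks left 9. Depth is unknown beyond reads inside peaks, so a missing peak does not show that binding was absent.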
